A study of Mus musculus with 34 samples.

Results

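The intervals described here are nucleosome calls and subnucleosome peaks of mouse male germ cells. They lie outside the assembled chromosomes, on unplaced and unlocalized scaffolds of the build GRCm38 (mm10). They were chosen by sequence name alone, as every row of the 24 deposited lists whose sequence is not chromosome 1 to 19, X, Y or the mitochondrial sequence. The choice gave 16897 of 3711338 intervals (0.455%), made up of 16190 nucleosome calls and 707 subnucleosome peaks. They lie on 40 scaffolds. Of these, 22 are unplaced, with no chromosome assigned (names starting with chrUn), and hold 12180 intervals. The other 18 are unlocalized, assigned to a chromosome without a position on it, and hold 4717 intervals. Chromosome 1 has 5 of the unlocalized scaffolds, chromosome 4 has 6, chromosome 5 has 5, and chromosomes 7 and X have 1 each. No list has a row on the mitochondrial sequence.

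The lists come from ATAC-seq, an assay that inserts sequencing tags into accessible DNA with the Tn5 transposase. The 34 libraries form 12 groups, 4 stages in each of 3 backgrounds. Abbreviated as in the labels, the stages are meiotic cells (MS), spermatids that are still round (RS), spermatids that are elongating and condensing (ES), and mature sperm of the cauda epididymis (Sp). The testis stages were separated by velocity sedimentation, and the tissue label of the sperm reads testes too. In the cKO mice (C57BL6, GCN5-/-) floxed Gcn5 alleles were deleted by Stra8-CRE, a recombinase whose promoter is active in male germ cells around the entry into meiosis. The SV129 mice, of 8 to 12 weeks, have intact Gcn5, and so do the WT mice (C57BL6, GCN5+/+). The age of cKO and WT mice is not given in the labels. Each SV129 collection pooled 11 mice, and pooled sedimentation fractions had a purity of at least 85% for all testis stages. There are 2 libraries in every cKO and WT group, 4 in the SV129 groups at MS, RS and ES (2 biological replicates with 2 technical repeats each) and 6 in SV129 sperm. The authors deposited 1 nucleosome list and 1 subnucleosome list per group. There is therefore no replicate error and no test between groups, and every difference below is between single lists. Counts have exact Poisson 95% intervals and shares have Wilson 95% confidence intervals. Both cover counting error only, as if calls were independent, which overlapping neighbours are not. Read depth is unknown. The lists do not measure the deleted Gcn5 exons, so the deletion was not checked here.

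Unplaced and unlocalized scaffolds are the pieces of a genome assembly that could not be joined to a chromosome. They commonly carry repeats and recently duplicated sequence, which assemblers cannot order. Germ cells rebuild their chromatin after meiosis: histones are widely acetylated, most of them are then exchanged for transition proteins and finally for protamines, and mature sperm keep few nucleosomes. Gcn5, encoded by Kat2a, is a histone acetyltransferase of the SAGA coactivator complex. The series asks how it bears on nucleosome changes in this period. Nucleosome calls mark DNA wrapped on histones, and subnucleosome peaks mark short fragments from open sites between them.

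The stage labels were set beside subnucleosome peaks at gene ends on the chromosomes, within 500 bp of either annotated end. Of 10 meiotic genes, such as Sycp3 of the synaptonemal complex, 7 had a peak in cKO MS, 9 in SV129 MS and 9 in WT MS. Of 10 spermatid genes, such as the protamine genes Prm1 and Prm2, 0 had one in cKO RS, against 10 in SV129 RS and 9 in WT RS. The lists separate the stages only in part: meiotic genes had a peak at RS in 3 of 10 in cKO, 7 in SV129 and 9 in WT, as many in WT as at MS. Spermatid genes had a peak at MS in 3 of 10 in cKO, 5 in SV129 and 5 in WT. The cKO RS subnucleosome list was also the shortest of the 3 at that stage, with 4075 peaks, against 29243 in SV129 and 56480 in WT. In these bulk fractions, fewer cells of a type and less open DNA per cell cannot be told apart. At ES no gene of either list had a peak in any background. Spermatid genes in sperm numbered 0 in cKO and 2 in SV129 and in WT. Of 10 Sertoli and Leydig cell genes, 8 blood genes and 6 epididymal or epithelial genes, no list had a peak at more than 1 of each. These were Amh in the MS lists of SV129 and WT, Spi1 and Krt8 in SV129 sperm, and Epcam in the RS lists of SV129 and WT.

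Over all 12 lists of a class, the number of scaffold intervals spanned a smaller factor than the length of the lists. For nucleosome calls this rested on the short sperm lists of SV129 and WT. In meiotic cells there were 1151 scaffold nucleosome calls in cKO, 1427 in SV129 and 1333 in WT, which is 0.363%, 0.717% and 0.404% of all calls in these lists. Round spermatids had 638 in cKO (0.307%), 1536 in SV129 (0.666%) and 285 in WT (0.112%). Elongating spermatids had 1243 in cKO (0.23%), 1848 in SV129 (0.385%) and 1568 in WT (0.265%). Sperm had 2138 in cKO (0.614%), 1513 in SV129 (11.1%) and 1510 in WT (17.5%). The cKO sperm list was thus the highest and the WT RS list the lowest of the 12. The scaffold counts spanned 7.5-fold, while the whole lists ran from 8628 to 591189 calls, a span of 68.5-fold. Without the SV129 and WT sperm lists, of 13615 and 8628 calls, list lengths ran from 199111 (SV129 MS) to 591189 (WT ES). That is a smaller factor than the one between the scaffold counts of the same lists, 285 to 2138.

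The high shares in SV129 and WT sperm came with short lists. With overlapping calls merged they were 5.92% in SV129 and 5.37% in WT, and without the scaffold chrUn_JH584304 3.76% in SV129 and 3.21% in WT, which turned the order of these backgrounds. The cKO sperm list had 347951 calls, the SV129 sperm list 13615 and the WT sperm list 8628. The Wilson interval of the share was 0.589 to 0.641% in cKO sperm, 10.6 to 11.7% in SV129 sperm and 16.7 to 18.3% in WT sperm. Per megabase, cKO sperm had 532 calls on scaffolds and 127 on chromosomes, SV129 sperm 377 and 4.45, and WT sperm 376 and 2.61. The density on scaffolds over that on chromosomes was 4.19 in cKO sperm, 84.7 in SV129 sperm and 144 in WT sperm, and between 0.762 and 4.89 in the 9 lists of the other stages. These densities count overlapping calls separately. The 0.762, in WT RS, was the only nucleosome value under 1.

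Subnucleosome peaks on scaffolds showed the same pattern at ES. In meiotic cells 48 peaks lay on scaffolds in cKO, 76 in SV129 and 77 in WT, which is 0.298%, 0.23% and 0.215% of the lists. Round spermatids had 16 in cKO (0.393%), 53 in SV129 (0.181%) and 63 in WT (0.112%). Elongating spermatids, whose lists held only 473 peaks in cKO, 787 in SV129 and 562 in WT, had 50 on scaffolds in cKO (10.6%, Wilson interval 8.11 to 13.7%), 63 in SV129 (8.01%, 6.31 to 10.1%) and 66 in WT (11.7%, 9.34 to 14.7%). Sperm had 62 in cKO (5.5%), 87 in SV129 (0.812%) and 46 in WT (1.52%). Scaffold peaks spanned 5.44-fold between lists, and the lists 119-fold. The density on scaffolds over that on chromosomes was 80.1 in cKO ES, 59.0 in SV129 ES and 90.2 in WT ES. It was 39.4 in cKO sperm, 5.55 in SV129 sperm and 10.5 in WT sperm, and 0.757 to 2.67 at MS and RS.

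**Figure D1:**
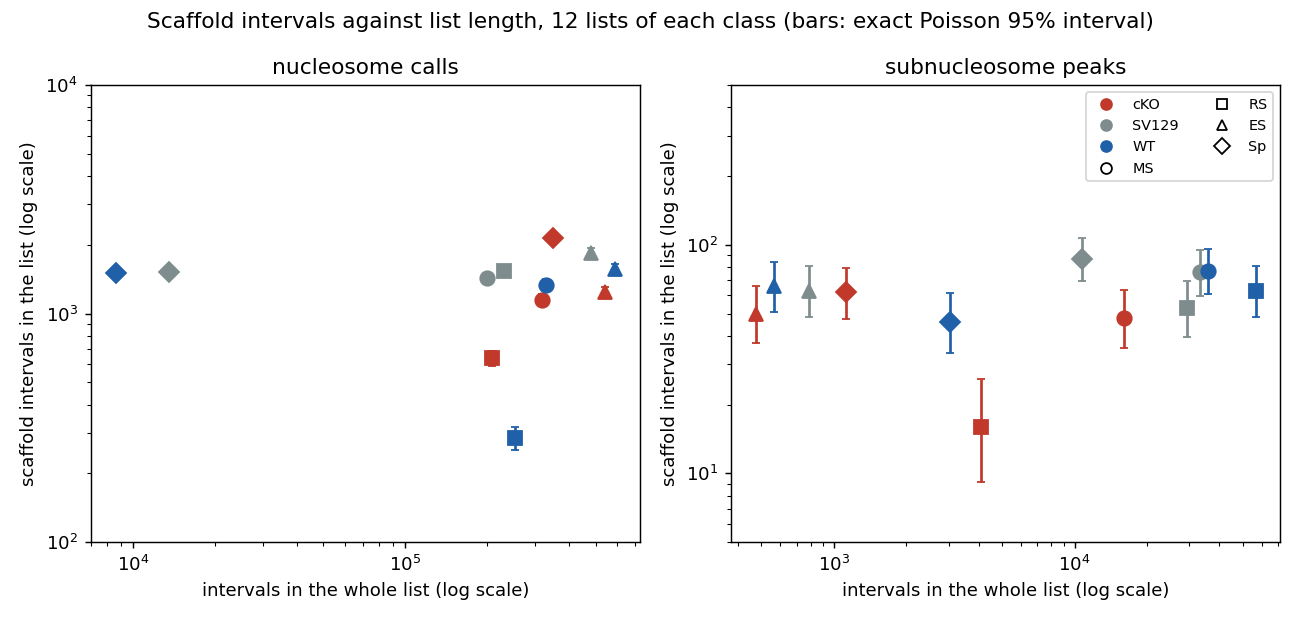
Intervals on scaffolds (vertical, log scale) against all intervals of the same list (horizontal, log scale), 1 point per list, colour for background and shape for stage, with exact Poisson 95% intervals. Nucleosome counts on scaffolds stay between 285 and 2138 and peak counts between 16 and 87, while list lengths spread over 68.5-fold and 119-fold. Without the SV129 and WT sperm lists, nucleosome list lengths run from 199111 to 591189, a smaller factor than the scaffold counts.

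The covered length did not always follow the counts, since calls overlap. Nucleosome calls covered 71.9 kb of scaffold in cKO MS, 70.9 kb in SV129 MS and 76.9 kb in WT MS, where SV129 had the most calls and the least covered length. At RS they covered 51.2 kb in cKO, 116 kb in SV129 and 26.4 kb in WT, and at ES 100.0 kb in cKO, 147 kb in SV129 and 127 kb in WT. In sperm they covered 158 kb in cKO, 103 kb in SV129 and 86.3 kb in WT, of a scaffold span of 4018 kb, taken as the largest coordinate seen on each scaffold. Of all nucleosome-covered DNA, 0.535% lay on scaffolds in cKO sperm, 8.83% in SV129 sperm and 11.2% in WT sperm. Subnucleosome peaks covered between 2.71 kb, in cKO RS, and 16.6 kb, in WT MS. They were narrow: median widths on scaffolds ran from 104.5 bp in cKO MS to 151 bp in WT RS, against 115.5 bp (SV129 ES) to 178 bp (WT MS) on chromosomes. Every nucleosome call is 150 bp wide.

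The intervals were concentrated on few scaffolds. The unplaced scaffold chrUn_JH584304, with a span of 113938 bp and 2.84% of the scaffold span, held 9816 nucleosome calls (60.6%) and 320 subnucleosome peaks (45.3%). In nucleosome calls it was followed by 4 scaffolds assigned to chromosome 1, chr1_GL456212_random with 1365, chr1_GL456211_random with 1309, chr1_GL456221_random with 764 and chr1_GL456210_random with 634, and by chrUn_GL456392 with 373. These 6 held 88.1% of the nucleosome calls, and 39 of the 40 scaffolds had at least 1. In subnucleosome peaks it was followed by chrUn_GL456393 with 46, chrUn_GL456383 with 45, chrUn_GL456390 and chrUn_GL456392 with 43 each, and chr4_GL456216_random with 35. These 6 held 75.2% of the peaks, and 30 scaffolds had at least 1. None of the chromosome 1 scaffolds was among them.

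Presence in every list was restricted to a few scaffolds. In nucleosome calls 9 scaffolds had a call in all 12 lists: chrUn_JH584304, 3 of the chromosome 1 scaffolds (all but chr1_GL456210_random, which had 0 calls in SV129 MS), chrUn_GL456392, chr4_GL456216_random, chrUn_GL456387, chrUn_GL456378 and chrUn_GL456389. In subnucleosome peaks 6 did: chrUn_JH584304, chrUn_GL456393, chrUn_GL456392, chrUn_GL456370, chrUn_GL456389 and chrUn_GL456396. At the other end, 2 scaffolds had nucleosome calls in 1 list only and 8 had subnucleosome peaks in 1 list only.

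**Figure D2:**
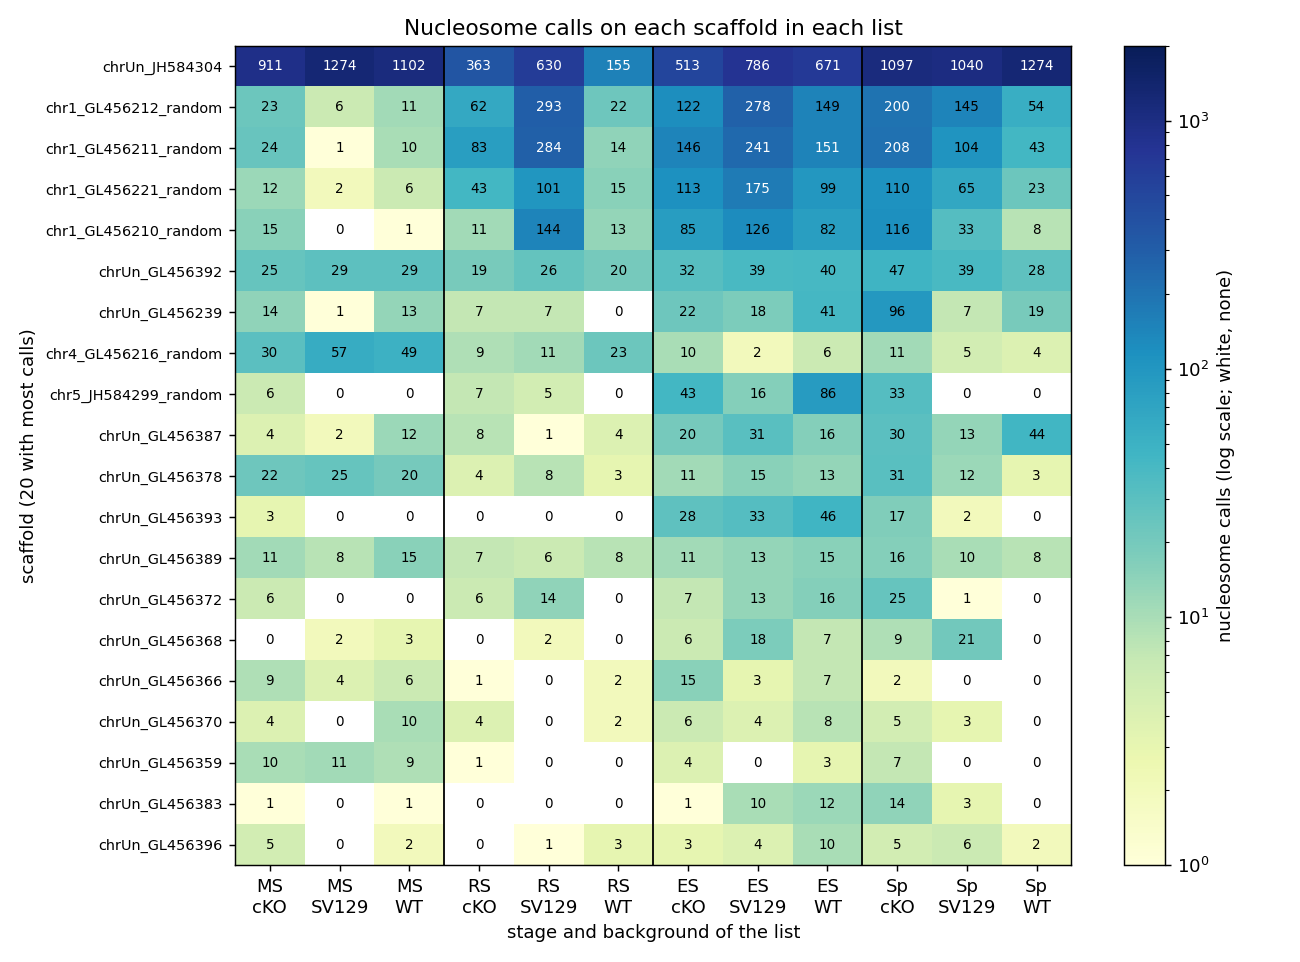
Nucleosome calls in each of the 12 lists (columns, by stage and background) on the 20 scaffolds with most calls (rows), as numbers and as colour on a log scale, white for none. chrUn_JH584304 has 155 to 1274 calls and leads in every list, and the chromosome 1 scaffolds hold at most 24 calls each at MS and up to 293 each at RS.

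chrUn_JH584304 held the largest share of every list's scaffold calls, yet its course over the stages was not that of the lists. It had 911 nucleosome calls in cKO, 1274 in SV129 and 1102 in WT at MS. At RS it had 363 in cKO, 630 in SV129 and 155 in WT, and at ES 513 in cKO, 786 in SV129 and 671 in WT. In sperm it had 1097 in cKO, 1040 in SV129 and 1274 in WT. All 3 backgrounds were lowest at RS and highest at MS or in sperm. This single scaffold made up 0.315% of the whole cKO sperm list, 7.64% of the SV129 sperm list and 14.8% of the WT sperm list. Its subnucleosome peaks numbered 24 in cKO, 37 in SV129 and 35 in WT at MS, 7, 21 and 21 in the same order of backgrounds at RS, 27, 31 and 27 at ES, and 28, 38 and 24 in sperm.

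Most nucleosome calls and most subnucleosome peaks of chrUn_JH584304 lay in different stretches of it, though in WT ES the calls were nearly even. At a divide of 70000 bp, set after the values were seen, the left 70 kb made up 61.4% of the span. It held 68.4% (WT ES) to 99.7% (cKO RS) of the scaffold's nucleosome calls. The right 43.9 kb held 59.5% (SV129 MS) to 92.9% (cKO sperm) of its subnucleosome peaks. In the left stretch the calls left few gaps. They covered 71.0% of it in cKO MS, 84.4% in SV129 MS and 77.1% in WT MS, and 77.4% in cKO sperm, 78.4% in SV129 sperm and 85.7% in WT sperm. The longest gap without a call there was 670 bp in cKO sperm and 820 bp in WT sperm, against 2755 bp in cKO RS and 4475 bp in WT RS. At RS coverage was 40.2% in cKO, 58.7% in SV129 and 19.3% in WT, and at ES 54.5% in cKO, 68.2% in SV129 and 52.0% in WT.

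The right stretch had another stage course. Its nucleosome calls numbered 19 in cKO, 11 in SV129 and 48 in WT at MS, and 1, 5 and 19 in the same order of backgrounds at RS. At ES there were 36 in cKO, 99 in SV129 and 212 in WT, and in sperm 236 in cKO, 104 in SV129 and 70 in WT. The counts at ES and in sperm exceeded those at MS and RS in each background. Call density on the left was 29.5 times that on the right in cKO MS, 72.1 times in SV129 MS and 13.8 times in WT MS. At ES it was 8.32 times in cKO, 4.36 times in SV129 and only 1.36 times in WT. In sperm it was 2.29 times in cKO, 5.65 times in SV129 and 10.8 times in WT. For subnucleosome peaks the same ratio lay between 0.0483 (cKO sperm) and 0.428 (SV129 MS) in all 12 lists.

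**Figure D3:**
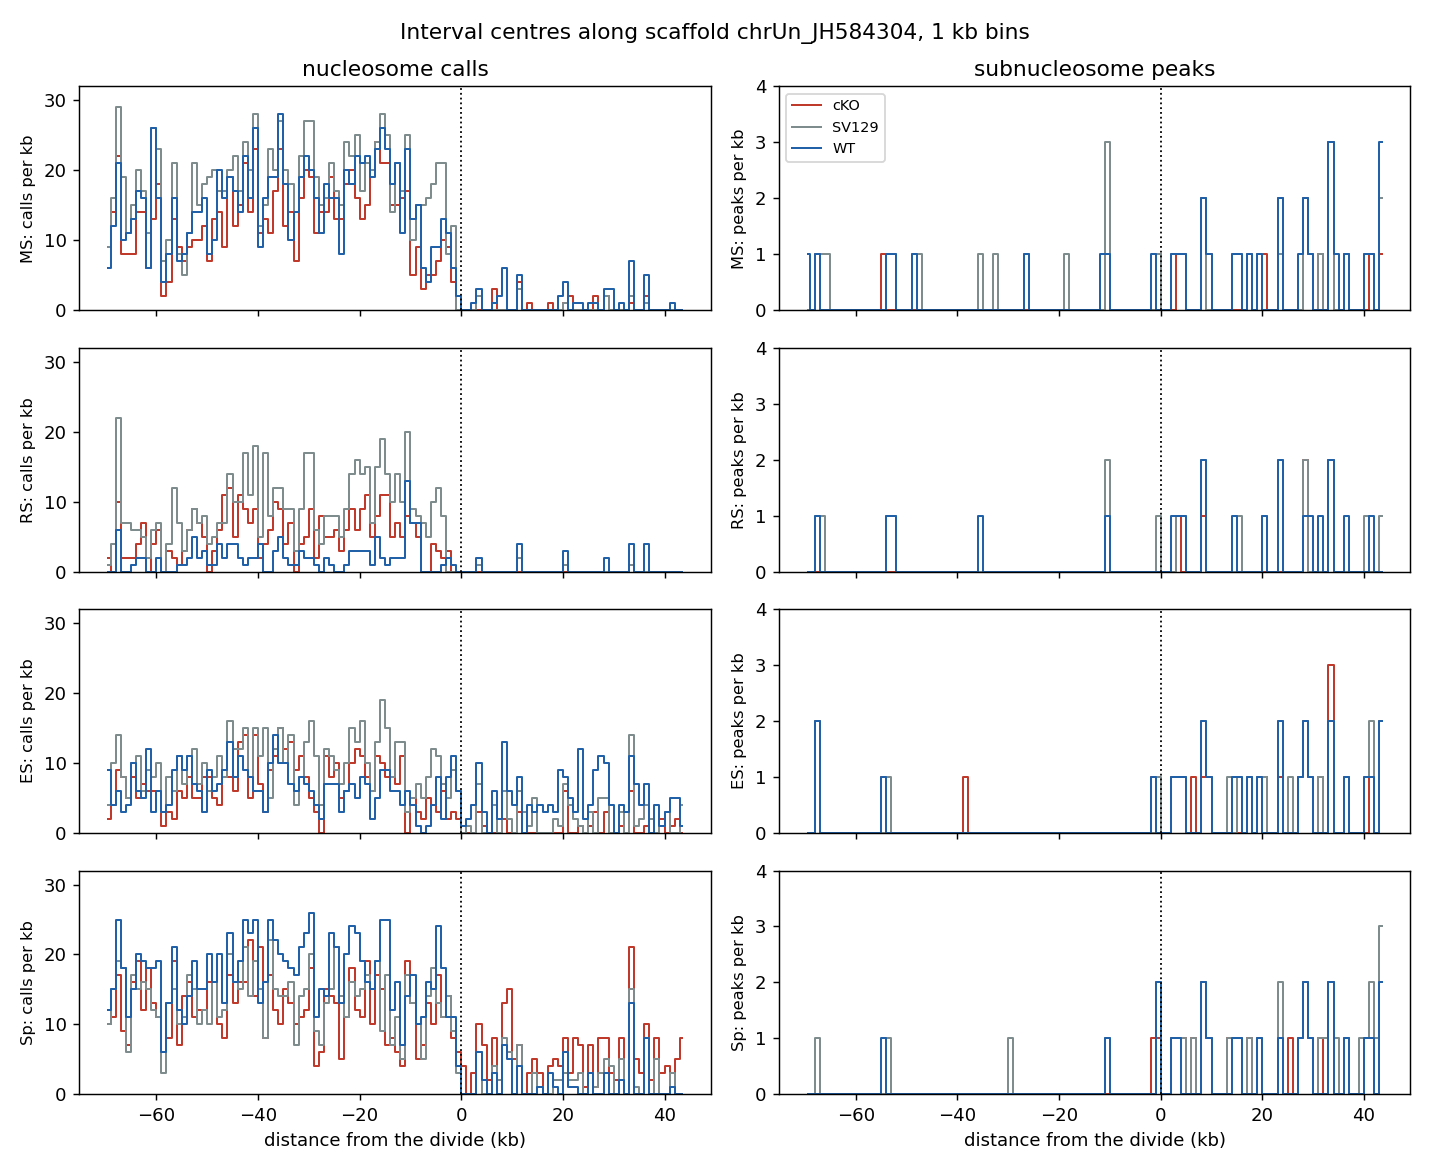
Interval centres per 1 kb bin along chrUn_JH584304, as distance from the divide in kb (dotted line at 0), for nucleosome calls (left column) and subnucleosome peaks (right column), 1 row per stage and 1 line per background. Nucleosome calls fill the left stretch at MS and in sperm and thin out at RS, and most subnucleosome peaks lie right of the divide.

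The 4 large scaffolds assigned to chromosome 1, with a joint span of 763 kb, had few nucleosome calls in meiotic cells and many later. They held 74 calls in cKO MS, 9 in SV129 MS and 28 in WT MS. At RS they held 199 in cKO, 822 in SV129 and 64 in WT, and at ES 466 in cKO, 820 in SV129 and 481 in WT. In sperm they held 634 in cKO, 347 in SV129 and 128 in WT. MS was the lowest stage in all 3 backgrounds, and the Poisson intervals at MS (58.1 to 92.9 in cKO, 4.12 to 17.1 in SV129, 18.6 to 40.5 in WT) did not reach those of any later stage of the same background. The highest stage was sperm in cKO, RS and ES nearly alike in SV129, and ES in WT. The SV129 and WT lists differed most at RS, although both backgrounds have intact Gcn5.

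Set against chromosome 1 itself, the density of nucleosome calls on these scaffolds crossed from near or below the chromosome to above it. The ratio was 1.2 in cKO MS, 0.232 in SV129 MS and 0.414 in WT MS. At RS it was 3.09 in cKO, 10.5 in SV129 and 0.718 in WT, and at ES 2.96 in cKO, 6.17 in SV129 and 2.7 in WT. In sperm it was 5.72 in cKO, 106 in SV129 and 54.1 in WT, where chromosome 1 had 145, 4.31 and 3.1 calls per megabase in the same order. The same scaffolds had few subnucleosome peaks, 0 in the 3 MS lists, 0 in cKO sperm and in WT sperm, and at most 6, in WT ES. At ES chromosome 1 also had few, so the peak density on the scaffolds over that on chromosome 1 was 22.3 in cKO (2 peaks, counting interval 2.69 to 80.4) and 56.9 in WT (6 peaks, 20.9 to 124), with 0 peaks in SV129. The fifth scaffold of chromosome 1 with an interval, chr1_GL456213_random, had 3 nucleosome calls, all in cKO ES.

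In counts, chr4_GL456216_random went the other way. It had 30 nucleosome calls in cKO MS, 57 in SV129 MS and 49 in WT MS, and 9 in cKO, 11 in SV129 and 23 in WT at RS. At ES it had 10 in cKO, 2 in SV129 and 6 in WT, and in sperm 11 in cKO, 5 in SV129 and 4 in WT. The MS intervals (20.2 to 42.8 in cKO, 43.2 to 73.9 in SV129, 36.3 to 64.8 in WT) lay above those of every later stage of the same background. Its density over that of chromosome 4 was 4.33, 13.8 and 6.49 at MS in cKO, SV129 and WT, and 1.6, 1.93 and 3.57 at RS. At ES it was 0.682, 0.148 and 0.383. In sperm the ratio was 1.11 in cKO, 9.25 in SV129 and 15.3 in WT (4 calls, counting interval 4.16 to 38.9). WT sperm was thus not below WT MS on this measure. The scaffold's subnucleosome peaks numbered 3, 7 and 7 at MS and 0, 4 and 6 at RS in cKO, SV129 and WT, and 1 or 2 in each of the 6 later lists.

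**Figure D4:**
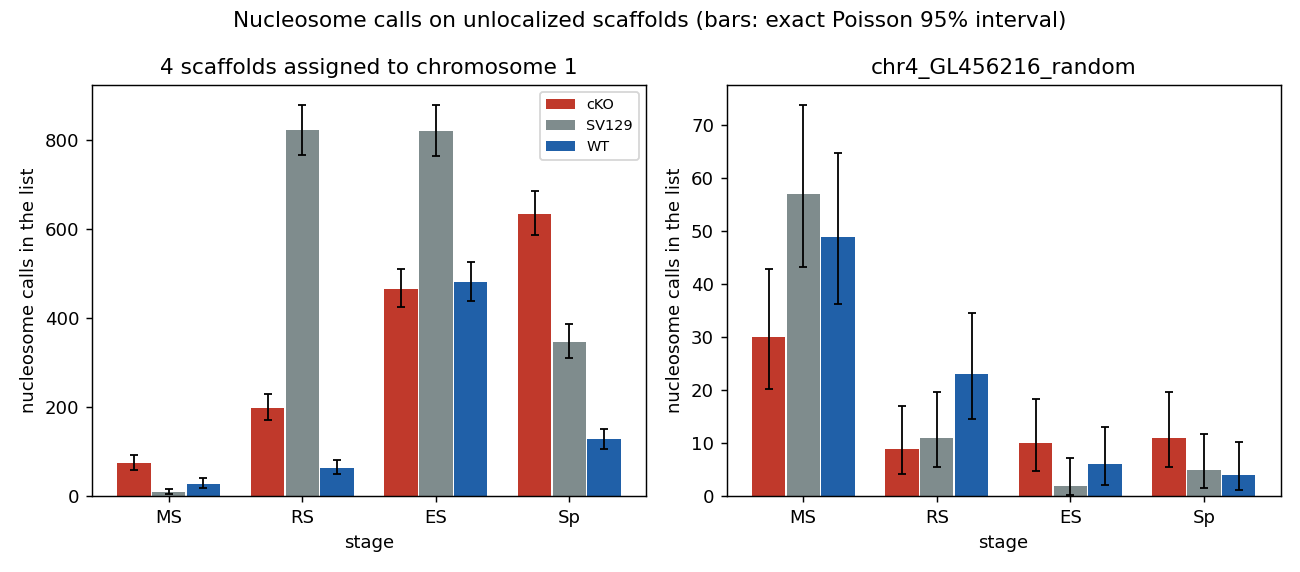
Nucleosome calls per list on the 4 large scaffolds of chromosome 1 together (left) and on chr4_GL456216_random (right), by stage, 1 bar per background, with exact Poisson 95% intervals. The chromosome 1 scaffolds are lowest at MS in each background, at 74, 9 and 28 calls in cKO, SV129 and WT, and chr4_GL456216_random is highest there, at 30, 57 and 49.

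Other scaffolds with at least 100 nucleosome calls differed in course. chrUn_GL456392 varied little, between 19 (cKO RS) and 47 (cKO sperm) calls in the 12 lists. chrUn_GL456389 stayed between 6 (SV129 RS) and 16 (cKO sperm). chrUn_GL456393 had 3 calls in cKO MS and 0 in the other 5 lists of MS and RS, then 28 in cKO, 33 in SV129 and 46 in WT at ES, and 17 in cKO, 2 in SV129 and 0 in WT sperm. chrUn_GL456239 had 96 calls in cKO sperm, against 7 in SV129 sperm and 19 in WT sperm. chrUn_GL456378 had 31 in cKO sperm, against 12 in SV129 and 3 in WT, and chrUn_GL456387 30, against 13 in SV129 and 44 in WT. On chromosomes the cKO sperm list had 345813 calls, against 12102 in SV129 and 7118 in WT, a larger factor than on these 3 scaffolds. On chr5_JH584299_random, the scaffold with the longest span, 913031 bp, ES had 43 calls in cKO, 16 in SV129 and 86 in WT, and sperm 33 in cKO, 0 in SV129 and 0 in WT. Its density was below that of chromosome 5 in all 12 nucleosome lists, at most 0.392 of it, in WT ES. chrX_GL456233_random, the only scaffold of a sex chromosome with an interval, had 27 nucleosome calls in all: 2 in SV129 MS, 11 in WT MS, 6 in WT ES and 8 in cKO sperm, with 0 in the other 8 lists.

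The cKO and WT lists were compared by the count of scaffold intervals in cKO over that in WT, set beside the same ratio on chromosomes and the ratio of SV129 to WT. For nucleosome calls at MS the cKO to WT ratio was 0.863 (exact 95% counting interval 0.797 to 0.935) on scaffolds and 0.961 on chromosomes, within the range of the 19 single autosomes (0.794 to 1.13). It turned to the other side of 1 without chrUn_JH584304 (1.04) and with overlapping calls merged (1.06). SV129 to WT was 1.07 there, against 0.602 on chromosomes. At RS the cKO to WT ratio was 2.24 (1.94 to 2.58) on scaffolds and 0.817 on chromosomes, above every single autosome (0.586 to 1.09). SV129 to WT was larger still, at 5.39 on scaffolds against 0.904 on chromosomes. Both ratios at RS have the 285 calls of the WT list as their base, and no second WT list was at hand to set beside it.

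At ES the nucleosome ratio of cKO to WT was 0.793 (0.735 to 0.855) on scaffolds and 0.915 on chromosomes, below the lowest autosome (0.837 to 0.992). SV129 to WT was 1.18 on scaffolds and 0.811 on chromosomes. In sperm the cKO to WT ratio was 1.42 (1.32 to 1.51) on scaffolds, against 48.6 on chromosomes and 21.3 to 110 over the single autosomes. The sperm lists of cKO and WT thus differed by far less on scaffolds than on any autosome. SV129 to WT in sperm was 1.0 (0.932 to 1.08) on scaffolds and 1.7 on chromosomes.

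The sperm ratio differed between scaffolds. chrUn_JH584304 had 1097 calls in cKO sperm and 1274 in WT sperm, a ratio of 0.861. All other scaffolds had 1041 in cKO sperm and 236 in WT sperm, a ratio of 4.41, still below the lowest autosome. SV129 to WT was 0.816 on chrUn_JH584304 and 2.0 on the other scaffolds. At RS the 2 portions were more alike, at 2.34 on chrUn_JH584304 and 2.12 on the other scaffolds for cKO to WT, and 4.06 and 6.97 for SV129 to WT.

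Subnucleosome peaks on scaffolds were fewer in the cKO lists at MS and RS. The factor was smaller than on chromosomes at RS, while at MS the counting interval included the chromosome ratio. At MS cKO to WT was 0.623 (0.425 to 0.905) on scaffolds and 0.449 on chromosomes (0.392 to 0.508 over autosomes), with SV129 to WT at 0.987. At RS it was 0.254 (0.137 to 0.445) on scaffolds and 0.0719 on chromosomes (0.0552 to 0.092 over autosomes), with SV129 to WT at 0.841 on scaffolds and 0.517 on chromosomes. The cKO RS list also had peaks at 0 of the 10 spermatid genes, and the part of this in the ratio was not tested. At ES cKO to WT was 0.758 (0.514 to 1.11) on scaffolds and 0.853 on chromosomes, an interval that includes 1. In sperm it was 1.35 (0.906 to 2.02) on scaffolds, which also includes 1, and 0.358 on chromosomes. SV129 to WT in sperm was 1.89 on scaffolds and 3.57 on chromosomes.

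Nucleosome calls overlapped a call of another background more often on scaffolds than on chromosomes, with SV129 calls at RS as the exception. Without chrUn_JH584304 the WT calls at MS set against SV129 were a further exception. An interval was counted as shared when it overlapped one of the other list by at least 1 bp. Each share depends on the length of the other list and on how densely its calls lie. A higher share therefore does not by itself show that positions were kept. At MS 983 of 1151 cKO calls on scaffolds (85.4%, Wilson interval 83.2 to 87.3%) overlapped a WT call, against 33.7% of cKO calls on chromosomes. The reverse share, of WT calls overlapping a cKO call, was 85.4%, against 38.3% on chromosomes. At RS 38.6% of the cKO calls overlapped a WT call (chromosomes 13.3%), and 63.9% of the WT calls a cKO call (13.9%). At ES the shares were 51.5% of cKO calls (7.39%) and 41.8% of WT calls (6.56%). In sperm they were 53.3% of cKO calls (1.29%) and 90.7% of WT calls (49.6%).

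Much of this sharing lay on chrUn_JH584304, whose left 70 kb was covered by calls over 71.0% to 85.7% at MS and in sperm. On it 97.3% of cKO MS calls and 88.1% of cKO sperm calls overlapped a WT call. On the other scaffolds the share was 40.4% of cKO MS calls, 25.1% of RS, 28.1% of ES and 16.5% of sperm calls. These lower shares were still above those on chromosomes at each stage, but the density of WT calls was not matched. Per megabase of all scaffolds, chrUn_JH584304 included, and of chromosomes, WT had 332 and 121 calls at MS and 70.9 and 93.1 at RS. At ES it had 390 and 217, and in sperm 376 and 2.61. The part of density in these shares was not tested.

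Between SV129 and WT, at MS 93.7% of SV129 calls overlapped a WT call (chromosomes 69.0%) and 87.2% of WT calls an SV129 call (44.7%). At RS the order turned for SV129, with 28.1% of its scaffold calls overlapping a WT call, against 40.7% of its calls on chromosomes, while 83.9% of WT calls overlapped an SV129 call (40.4%). At ES the shares were 51.1% of SV129 calls (8.37%) and 52.1% of WT calls (7.35%). The first was close to the 51.5% of cKO calls that overlapped a WT call. The second was above the 41.8% of WT calls that overlapped a cKO call. In sperm they were 78.7% of SV129 calls (26.1%) and 91.7% of WT calls (39.8%). Without chrUn_JH584304 the shares of SV129 calls were 75.2% for MS, 17.4% for RS, 29.0% for ES and 39.5% for sperm. Those of WT calls were then 43.7% for MS, just below the chromosomes, 77.7% for RS, 29.9% for ES and 62.3% for sperm.

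On scaffolds, most overlap between the MS and sperm calls of a background lay on chrUn_JH584304. Calls covered 71.0% to 85.7% of its left stretch at these stages. A call there meets another almost wherever it lies, so overlap on this scaffold cannot show that positions were kept. Of the nucleosome calls in sperm, 45.1% in cKO, 68.3% in SV129 and 84.2% in WT overlapped a call of the MS list of the same background, against 7.03%, 53.0% and 50.4% on chromosomes. Of the MS calls, 85.6% in cKO, 90.6% in SV129 and 86.5% in WT overlapped a sperm call, against 9.18%, 4.85% and 1.78% on chromosomes. Outside chrUn_JH584304 the share of MS calls met again in sperm was 50.8% in cKO, 41.2% in SV129 and 29.0% in WT, and that of sperm calls met at MS 13.7%, 16.9% and 30.1% in the same order. These shares lay above those on chromosomes, except that of sperm calls in SV129 and WT, which lay below.

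Subnucleosome peaks on scaffolds did not stand on one side of those on chromosomes at MS and RS, and were shared more often in sperm. At MS 43 of 48 cKO peaks (89.6%) overlapped a WT peak, against 96.5% on chromosomes, and 54.5% of WT peaks a cKO peak (42.0%). At RS all 16 cKO peaks did (100.0%, Wilson interval from 80.6%), against 99.8% on chromosomes, and the reverse share was 22.2% (7.03%). At ES the shares were 88.0% of cKO peaks (82.7%) and 65.2% of WT peaks (72.0%). In sperm they were 62.9% of cKO peaks (50.2%) and 87.0% of WT peaks (18.0%). Between SV129 and WT, 78.9% of SV129 peaks overlapped a WT peak at MS (80.0% on chromosomes) and 71.7% at RS (89.9%). In the later lists it was 84.1% at ES, against 50% on chromosomes, and 50.6% in sperm (18.6%). The reverse shares, of WT peaks, were 74.0% in the MS list (71.1%), 57.1% in the RS list (45.0%), 77.3% in the ES list (73.6%) and 97.8% in the sperm list (66.6%).

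Merging the subnucleosome peaks of the 12 lists where they overlapped gave 155 loci on scaffolds. Of these, 11 (7.1%) were found in all 12 lists, against 137 of 79175 loci (0.173%) on chromosomes, and 49 in 1 list only. A locus in all 12 lists needs a peak in the shortest list, which caps the number of such loci. The cap was 16 peaks on scaffolds (cKO RS), for 155 loci, and 423 on chromosomes (cKO ES), for 79175 loci. Relative to the loci it was tighter on chromosomes, and the part of this cap in the contrast was not tested. The 11 constant loci were short open sites on 6 unplaced scaffolds, 5 of them on the right stretch of chrUn_JH584304. One, chrUn_JH584304:98085-98453, was covered by peaks over 192 bp (cKO RS) to 361 bp (WT RS), with the other 10 lists between 242 and 277 bp. At chrUn_JH584304:73074-73437 the covered length was 173 bp in cKO RS and between 346 and 360 bp in the other 11 lists. The remaining ones on that scaffold were 78514-78712, 103220-103653 and 103744-103965.

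The longest constant locus was chrUn_GL456392:22074-22856. Peaks covered 636, 653 and 749 bp of it at MS in cKO, SV129 and WT, 558, 639 and 653 bp at RS, 725, 728 and 771 bp at ES, and 742, 780 and 650 bp in sperm. Constant loci were chosen for a peak in every list, so none can be empty, and coverage cannot exceed the locus itself. Their evenness therefore does not show how alike the lists were. A second locus on chrUn_GL456392, 23027-23510, lay next to the longest one. chrUn_GL456396:11923-12075 was the most even, with 131 to 153 bp covered in each list, and chrUn_GL456393:41544-41658 had 83 to 112 bp. The last 2 were chrUn_GL456389:10349-10821, with 348 to 472 bp, and chrUn_GL456370:26151-26606, with 96 to 456 bp. No gene of the annotation used can be tied to them, because it names no scaffold for any gene.

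**Figure D5:**
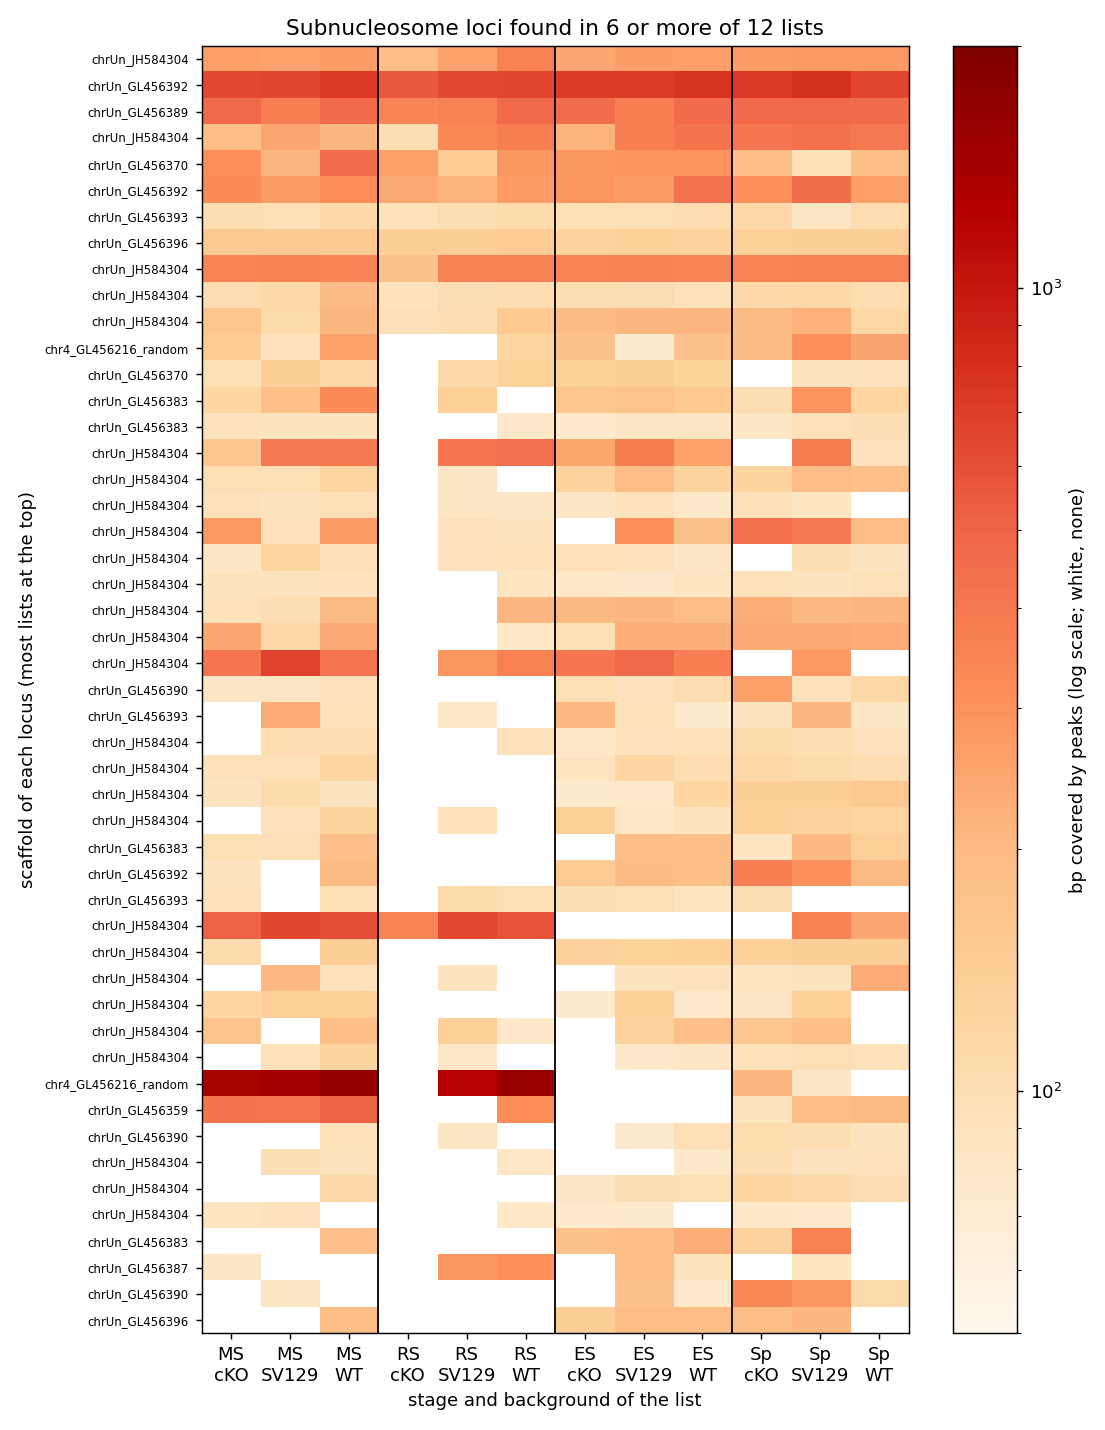
The 49 subnucleosome loci found in 6 or more of the 12 lists (rows, named by scaffold, those in most lists at the top) with the base pairs covered by peaks in each list (columns, by stage and background) as colour on a log scale, white for none. The top 11 rows are filled in every list, the cKO RS column is the emptiest, and a few rows are filled mainly at MS and RS.

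Some loci varied with stage instead, chosen here after their values were seen. chr4_GL456216_random:15700-17396, the longest subnucleosome locus on any scaffold, was covered by peaks over 1369 bp in cKO, 1427 bp in SV129 and 1679 bp in WT at MS. At RS the covered length was 0 bp in cKO, 1237 bp in SV129 and 1587 bp in WT, at ES 0 bp in all 3, and in sperm 208 bp in cKO, 82 bp in SV129 and 0 bp in WT. chrUn_JH584304:59502-60164, a locus in the left stretch, was covered over 510, 655 and 608 bp at MS in cKO, SV129 and WT, 351, 633 and 580 bp at RS, 0 bp in all 3 at ES, and 0, 359 and 241 bp in sperm. chr4_GL456216_random:31901-32290 had peaks only at MS (121, 264 and 169 bp in cKO, SV129 and WT) and at RS (359 bp in SV129 and 384 bp in WT, 0 bp in cKO).

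The nucleosome calls merged into 1284 loci, of which 17 (1.32%) were found in all 12 lists, against 124 of 1217776 (0.0102%) on chromosomes, and 734 in 1 list only. Here too the shortest list is a cap, with 285 calls on scaffolds (WT RS) and 7118 on chromosomes (WT sperm). Of the 17, 15 lay on chrUn_JH584304, including the 10 with most calls. Dense calls chain into long loci when merged, so such a locus need not be a single position. The longest, chrUn_JH584304:31072-42961, was 11.9 kb long and was covered over 9838, 11000 and 10560 bp at MS in cKO, SV129 and WT, and over 5652, 7905 and 2175 bp at RS. At ES it was covered over 7437, 8630 and 6863 bp, and in sperm over 9338, 9520 and 11005 bp. The next, 50767-61676 on the same scaffold, had its lowest coverage in WT RS as well, 3890 bp, against 10120 bp in WT MS.

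Nucleosome calls were clustered more tightly on scaffolds than on chromosomes, mostly on chrUn_JH584304. The share of calls with a neighbour whose centre lay within 150 bp was 94.6% in cKO MS, 97.9% in SV129 MS and 95.3% in WT MS, against 81.2%, 84.6% and 82.2% on chromosomes. In sperm it was 92.2% in cKO, 92.5% in SV129 and 95.2% in WT, against 81.6%, 78.9% and 69.7%. WT RS was the only list where scaffolds were not above the chromosomes, with 76.5% against 77.8%. Joining calls with gaps of up to 500 bp gave 3.17 (WT RS) to 34.8 (SV129 MS) calls per cluster on scaffolds and 1.98 to 3.63 on chromosomes. The largest cluster lay on chrUn_JH584304 in all 12 lists and held 54.9% of the scaffold calls in cKO MS (40.5 kb long), 71.2% in SV129 MS (52.6 kb) and 59.5% in WT sperm (49.2 kb), but 9.47% in WT RS and 5.55% in WT ES. These shares depend on the gap allowed: with 150 bp they were 8.95% in cKO MS, 17.3% in SV129 MS and 13.7% in WT sperm. Without that scaffold there were 2.6 to 4.78 calls per cluster. The share with a neighbour within 150 bp was then close to that on chromosomes in cKO MS (82.1% against 81.2%), cKO RS (85.1% against 85.2%) and WT ES (81.8% against 81.9%). It remained apart in SV129 ES (81.5% against 71.6%), SV129 RS (85.7% against 74.6%) and WT sperm (77.1% against 69.7%). No subnucleosome peak on scaffolds had a neighbour's centre within 150 bp, and on chromosomes at most 0.261% (SV129 MS) did. Clusters held 1.13 to 1.45 peaks on average, against 1.02 to 1.28 on chromosomes. Within a list they held more on scaffolds, as in cKO RS (1.45 against 1.03), except in cKO ES (1.16 against 1.2) and WT ES (1.16 against 1.28).

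The 2 fragment classes met more often on scaffolds than on chromosomes in sperm and less often in meiotic cells. In sperm 44 of 62 scaffold peaks in cKO (71.0%, Wilson interval 58.7 to 80.8%) overlapped a nucleosome call of the same group, 40 of 87 in SV129 (46.0%) and 20 of 46 in WT (43.5%). On chromosomes the shares in sperm were 42.3% in cKO, 8.18% in SV129 and 4.5% in WT. At MS the scaffold shares were 29.2% in cKO, 34.2% in SV129 and 51.9% in WT, below 56.5%, 57.1% and 63.5% on chromosomes. At RS they were 37.5% in cKO, 30.2% in SV129 and 36.5% in WT, against 24.4%, 43.8% and 44.8%, and at ES 42.0%, 60.3% and 65.2%, against 51.8%, 56.1% and 59.7%. The chromosome shares in sperm come with nucleosome lists of 347951 calls in cKO, 13615 in SV129 and 8628 in WT.

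The deposited scores of subnucleosome peaks, given by the authors on a scale the sources used here do not state, placed the scaffold peaks differently within each list. In sperm the median scaffold peak stood at percentile 83.5 of its list in cKO and at percentile 94.9 in WT, where 28 of 46 (60.9%) were in the top 10% of the list. At RS it stood at percentile 92.6 in cKO and 50.5 in WT. At MS it stood at 54.6 in cKO and 34.6 in WT, and at ES at 46.6 in cKO and 53.4 in WT. The SV129 subnucleosome lists have a score of 0 in every row and allow no such placing. The nucleosome scores hold many ties: the score most common in a list was carried by 1.89% to 20.4% of its scaffold calls, against 17.4% to 70.5% of its calls on chromosomes, and lower on scaffolds than on chromosomes in all 12 lists.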

How the data were processed

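Nucleosome calls and subnucleosome peaks were used as the authors deposited them, in lists that combine the libraries of a group and hold no values per library. The authors' score of a nucleosome call has many ties and no stated meaning. The deposited score of a peak is on an unstated scale in cKO and WT and 0 in SV129. STAR 2.5.2a, MACS2 2.1.0.20140616 and the build GRCm38 (mm10) are named in the submitters' processing notes, with no role given. No source used here says how reads that match several places were treated, or how libraries were combined.

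Intervals were counted, merged and overlapped in Python 3.11.15 (pandas 2.3.3, numpy 2.4.6, SciPy 1.17.1, matplotlib 3.10.9). The counting code was tested on simulated intervals. Scaffold and chromosome lengths were the largest coordinate seen. No genome sequence was used. Named were the 6 scaffolds with most intervals of each class, those holding most of a list's scaffold intervals, those in all 12 lists of a class and the 10 loci found in most lists. Other scaffolds, and the loci that varied with stage, were named after their values were seen. The scaffolds and lists were chosen with earlier results of these data known. Alternatives merged overlapping intervals, kept the upper part of a list by score, left out chrUn_JH584304 or the X scaffold, and changed the overlap and the cluster gap.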

Additional observations from a re-analysis of the deposited data

Results flagged for a closer look

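The count of scaffold intervals in cKO over that in WT pointed to different sides of 1 at different stages. For nucleosome calls it was below 1 at MS (0.863) and ES (0.793) and above 1 at RS (2.24) and in sperm (1.42). The MS value turned to 1.06 with overlapping calls merged and to 1.04 without chrUn_JH584304. For subnucleosome peaks it was below 1 at MS (0.623), RS (0.254) and ES (0.758) and above 1 in sperm (1.35). The counting intervals at ES (0.514 to 1.11) and in sperm (0.906 to 2.02) included 1. On chromosomes the ratios at MS, RS, ES and in sperm were 0.961, 0.817, 0.915 and 48.6 for nucleosome calls. For peaks they were 0.449, 0.0719, 0.853 and 0.358. With 1 list per group, the difference between stages was not tested. The SV129 to WT ratio of nucleosome calls at RS, 5.39, was larger than that of cKO to WT.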

How the results depend on the processing

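No paired analysis was possible because each group has 1 list per class and no value per library, so no replicate could be left out either. With overlapping intervals merged, the percent of a nucleosome list on scaffolds became 0.159, 0.172 and 0.157 at MS (cKO, SV129, WT), 0.257 and 0.407 at RS (cKO, SV129), 0.186, 0.243 and 0.216 at ES, and 0.381, 5.92 and 5.37 in sperm. In WT RS it went from 0.112 to 0.114, within its Wilson interval. Merging left the 12 subnucleosome shares unchanged, so it was no check on them. Without chrUn_JH584304 all 24 shares were lower: 0.076, 0.0773 and 0.0703 at MS, 0.133, 0.394 and 0.0513 at RS, 0.135, 0.221 and 0.152 at ES and 0.3, 3.76 and 3.21 in sperm for nucleosome calls, and 0.149, 0.118 and 0.117 at MS, 0.221, 0.11 and 0.0744 at RS, 5.16, 4.23 and 7.29 at ES and 3.09, 0.459 and 0.733 in sperm for subnucleosome peaks. In the upper 50% of each list by deposited score the subnucleosome share became 0.162 in WT MS, 0.733 in cKO RS, 9.35 in cKO sperm and 2.66 in WT sperm; SV129 lists gave no value, since their score is constant. Leaving out the mitochondrial sequence could change no share, as no list has a row on it. Without the X scaffold, which holds 27 nucleosome calls and 4 peaks, the shares stayed within the interval in all 24 lists. The cKO to WT ratio of nucleosome calls at MS turned round, to 1.06 with intervals merged and 1.04 without chrUn_JH584304. The ratio at RS became 1.72 and that in sperm 2.91 with intervals merged, and that in sperm 4.41 without chrUn_JH584304. The subnucleosome ratio in the upper 50% by score became 0.931 at MS and 0.455 at RS. The cause was not tested. Asking for an overlap of at least 50% of an interval's length gave 82.3%, 32.4%, 44.1% and 49.7% of cKO nucleosome calls shared with WT at the 4 stages, and 17 of the 30 other shares moved. The share in the largest cluster moved in 11 of 24 lists with a gap of 150 bp, in 22 with 5000 bp and in 12 without chrUn_JH584304. What read depth limits could not be examined, since depth is unknown.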

Other observations

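Several scaffolds were met in a single list. chr7_GL456219_random, the only scaffold of chromosome 7 with an interval, had 1 subnucleosome peak, in WT RS, and no nucleosome call. chr4_JH584293_random had 5 nucleosome calls, all in WT ES. Of the 8 scaffolds with subnucleosome peaks in 1 list only, 5 were found in WT RS, the longest subnucleosome list, each with 1 peak. The tiny chr4_JH584295_random, with a span of 1755 bp, had 11 nucleosome calls, 7 of them in WT MS, and 7 subnucleosome peaks, all at MS and RS in SV129 and WT.

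The gene table of GRCm38.p6 gives no chromosome for 17 genes, 13 pseudogenes, 4 long noncoding RNAs and 0 protein-coding genes, and names no scaffold for them. None was therefore set beside an interval.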
